A study of Mus musculus with 40 samples.

Results

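The effect of the BET inhibitor OTX015 on gene expression was compared between B16F10 melanoma cells growing in culture and tumours that these cells formed in mice. The comparison took the change in tumours (OTX015-treated minus untreated) and subtracted the change in cultured cells (OTX015-treated minus untreated), gene by gene, on the log2 scale. It used 29 of the 40 arrays of the series, chosen by their labels: 4 untreated and 4 OTX015-treated cultures of B16F10, and 11 untreated and 10 OTX015-treated tumours. The untreated tumours are labelled as the OTX-015 experiment, and the labels of the treated ones name the drug and no experiment. The other 11 arrays belong to a guadecitabine experiment with controls of its own and entered only the choice of probe sets and 1 alternative fit. All 17097 genes named by the array were measured in both settings, so every gene could be placed by its change in cells and its change in tumours.

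B16F10 is an established, pigmented mouse melanoma line that is transplanted into mice of its own strain background. The cultures grew in DMEM with fetal bovine serum and received OTX015 in the medium. For the tumours, C57black6J mice aged 8 weeks were injected under the skin with B16F10 cells and received OTX015 by mouth, and the control tumours are labelled untreated, OTX-015 experiment. Doses, lengths of treatment, the time of collection and the sex of the mice are not given in the sources used here, so the exposure in culture and in the animal cannot be matched. The label calls the tumour samples melanocytes of the tumour and mentions no sorting. Whether replicates are separate cultures and animals is not stated either, and p-values measure the spread between these samples, which may in part be technical. All samples thus derive from 1 cell line, and the tumours stand for 1 graft model in a host with its own immune cells.

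BET proteins (Brd2, Brd3 and relatives) carry bromodomains that bind acetylated lysines on histone tails and bring the elongation factor P-TEFb to promoters and enhancers. OTX015 occupies the bromodomains and displaces the proteins from chromatin, which lowers transcription of genes that depend on them, among them Myc in many tumour cells. A well known part of the response is a release of P-TEFb from its inhibitor complex, with a rise of Hexim1, which encodes that inhibitor, and of histone genes. In macrophages and other immune cells BET inhibitors are known to dampen inflammatory and interferon-induced genes.

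RNA was hybridised to Affymetrix 3′ arrays, and levels are log2 values. The deposited means of the 10 treated-tumour arrays lay between 4.34 and 4.38 and those of the other 19 between 4.54 and 4.64. The 29 arrays were therefore brought to 1 distribution by quantile normalization, and whether the treated tumours' lower values came with the treatment or with their processing cannot be told apart. The same limit holds for the tumour changes of single genes given below, and for their differences from cells. Quantile normalization evens the distribution of an array and need not remove a difference in processing at single probe sets. A gene was taken as above background where a group mean exceeded 4.47, a level set by olfactory and vomeronasal receptor genes. Of 19 measured melanocyte genes, 18 lay above it in untreated cells and 18 in untreated tumours, as the melanocyte label states. Of 19 macrophage markers, 0 lay above it in untreated cells and 15 in untreated tumours, where their mean ranged from 5.71 to 7.51, so the tumour RNA also came from cells of the host. In bulk tumours, fewer cells of a type and less RNA per cell cannot be told apart. The arrays with the lowest spread of values were control tumours 9 and 11 and treated tumour 4, and counts without these 3 are given where they change a statement. Arrays give no read depth, and the number of arrays limits the precision. Across genes, the median SE of a log2 change was 0.083 in cells, 0.074 in tumours and 0.135 for the difference.

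With the arrays brought to 1 distribution, OTX015 changed more genes in culture than in tumours, and most of what it changed in culture had no called counterpart in tumours. A gene is called here at a limma adjusted p (Benjamini-Hochberg, over all genes) under 0.05. In cells 6765 genes were called, 39.6% of those tested, with 3221 higher and 3544 lower. In tumours 2765 were called (16.2%), with 1483 higher and 1282 lower. On the deposited values the order of these counts turned round, with 6635 called in cells and 9445 in tumours (215 higher and 9230 lower), where the median gene lay at -0.21 in tumours. The spread of the changes over genes was 0.54 log2 units (SD) in cells and 0.19 in tumours. The difference between the effects was called for 5581 genes (32.6%), positive for 3081 and negative for 2500, where positive means that the tumour value lies above the cell value. Of these genes, 4046 (72.5%) were called in cells only, 798 (14.3%) in tumours only, 185 in both the same way, 370 in both in opposite ways and 182 in neither. The difference reached 4-fold for 168 genes, 113 of them positive. Of the 78 receptor genes that set the background, 2 were called in cells, 11 in tumours and 6 for the difference, so calls among genes near background occur in the tumour fit in particular.

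**Figure D1:**
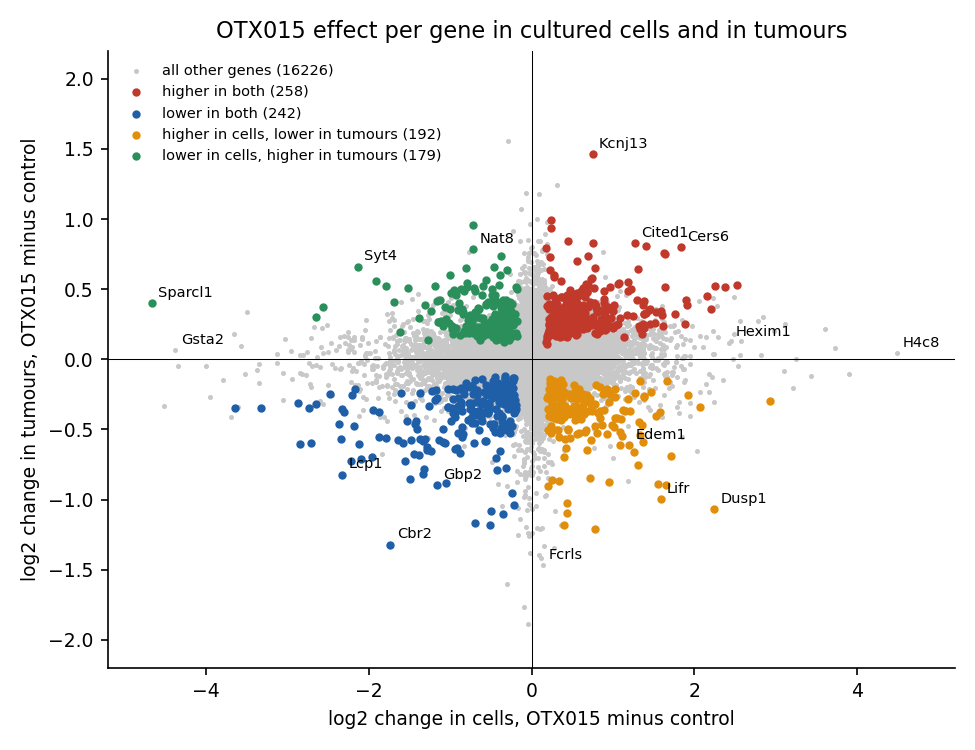
Each point is 1 of 17097 genes, with its log2 change (OTX015 minus control) in 8 cultures on the x axis and in 21 tumours on the y axis; colours mark the genes called in both. The points spread widely along the x axis and little along the y axis, and the coloured genes (258 higher in both, 242 lower in both, 192 and 179 in opposite ways) fill all 4 quadrants.

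Genes called in both settings went the same way or opposite ways. There were 258 higher in both and 242 lower in both, against 192 higher in cells and lower in tumours and 179 lower in cells and higher in tumours. Among the 3221 genes that rose in cells, 8.01% rose and 5.96% fell in tumours, where 8.67% and 7.5% of all genes did. Among the 3544 genes that fell in cells, 5.05% rose and 6.83% fell in tumours. These 4 shares lay below those of all genes, a reference that includes many genes near background, which were called in tumours more often. Of the 8469 genes above background in untreated cells and untreated tumours, 11.4% were called in tumours (5.87% rose and 5.49% fell), 64.5% in cells (30.5% rose) and 47.0% for the difference. There 7.42% of the genes that rose in cells rose in tumours and 4.83% fell, and of those that fell in cells 4.58% rose and 5.52% fell. The share rising in both thus lay above that of the 8469 genes and the share falling in both beside it, while both opposite shares lay below; these differences were not tested. Across all genes Pearson's r between the changes was 0.0697, and 0.0995 among those 8469, a description only, since genes are not independent replicates.

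The largest falls in culture stood apart from this background. Of 123 genes that fell at least 4-fold in cells, 15.4% fell and 3.25% rose in tumours, and the difference was called for all 123. For the 49 genes that rose at least 4-fold, 10.2% rose and 6.12% fell in tumours, which lies near the shares of all genes. Median tumour changes were small throughout these bins, from -0.045 to 0.079 on the log2 scale. The members of the 4 classes also moved by less in tumours: the change was larger in cells for 210 of the 258 genes higher in both, 198 of the 242 lower in both, and 143 of 192 and 146 of 179 of the opposite classes. Both changes reached 1.5-fold for 10 genes higher in both, 27 lower in both, 14 higher in cells and lower in tumours, and 5 the other way round.

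**Figure D2:**
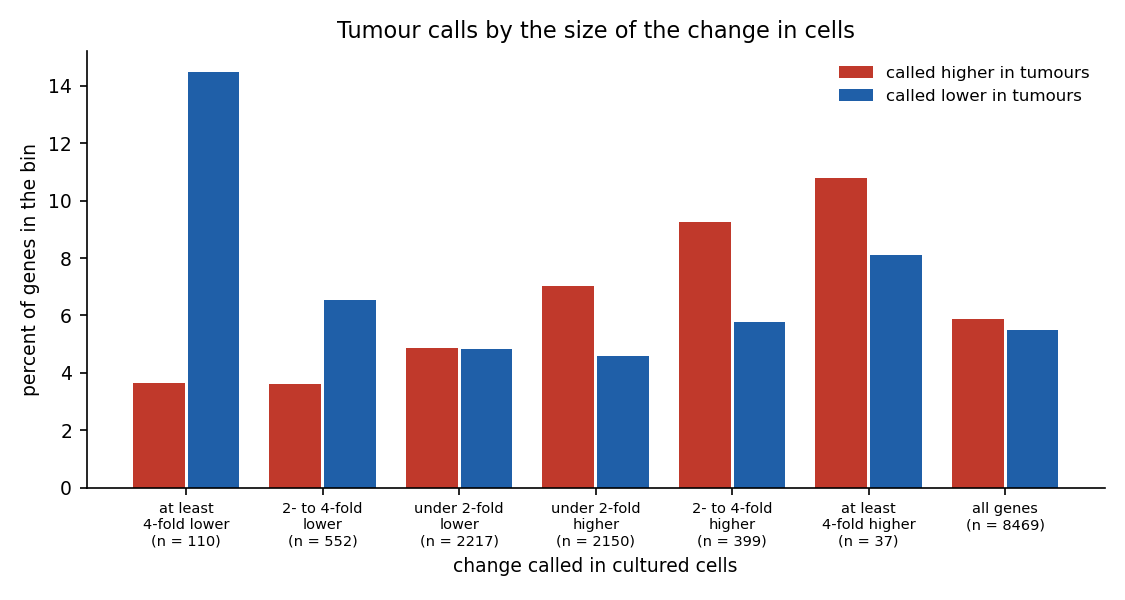
Percent of genes called higher (red) or lower (blue) in tumours, for the 8469 genes above background in untreated cells and tumours, in bins of the change called in cells; n is the number of genes in a bin. In the last bin, all genes, the bars stand at 5.87% and 5.49%, and the bin of genes that fell at least 4-fold in cells has the highest share of falls, 14.5%.

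Classical BET inhibitor responses were seen in cultured cells and were not called in tumours with all arrays used. With 1 array left out, at most 1 of Brd2, Brd3, Myc and Hexim1 was called higher in tumours. Treated tumours above every control numbered 4 of 10 for Brd2, 5 for Brd3 and 1 for Hexim1. Hexim1 read 6.82, 6.98, 6.58 and 6.74 in the control cultures and 9.21, 9.15, 9.24 and 9.24 in the treated ones. In tumours it ranged from 6.89 to 7.44 (median 7.08) in control tumours and from 6.95 to 7.84 (median 7.15) in treated tumours. The cultures did not overlap, with every treated one above every control, while the tumours overlapped widely. Hexim1 rose by 2.43 ± 0.08 SE in cells (limma adjusted p = 3.26e-10) and its tumour change was 0.12 ± 0.08 SE (adjusted p = 0.382), a difference of -2.31 ± 0.15 SE (adjusted p = 5.28e-13). Brd2, a target of the drug, rose by 2.11 ± 0.08 SE in cells and had a tumour change of 0.09 ± 0.07 SE (difference -2.02, adjusted p = 6.37e-13). Brd3 rose by 0.37 in cells and changed by 0.20 in tumours without passing the test (adjusted p = 0.0948), and its difference of -0.17 ± 0.15 SE was not called (adjusted p = 0.407). With the mean of its 4 probe sets the difference was -0.65 and called (adjusted p from 7.15e-05 to 0.717 in 12 other settings). Myc, which encodes a growth-promoting transcription factor, fell by 1.26 on the log2 scale in cells and had a value of -0.14 ± 0.18 SE in tumours (adjusted p = 0.669). Its difference of 1.12 ± 0.31 SE was called (adjusted p = 0.00608), and was lost without renormalization (0.86; adjusted p from 0.000919 to 0.0543 in 12 other settings).

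The 8 largest positive differences belonged to genes that fell to background or close to it in treated cultures and, Sparcl1 apart, were not called in tumours. Sparcl1, a secreted matrix protein gene related to SPARC, headed them and rose in tumours. Its levels were 8.33, 8.51, 8.11 and 8.30 in the control cultures and 3.68, 3.67, 3.66 and 3.56 in the treated ones. Tumours ranged from 8.87 to 9.51 (median 9.20) in control tumours and from 9.19 to 10.01 (median 9.55) in treated tumours. The cultures were far apart, and 7 of 10 treated tumours lay above every control. The changes were -4.67 ± 0.08 SE in cells and 0.40 ± 0.09 SE in tumours, and the difference of 5.07 ± 0.16 SE had a limma adjusted p of 4.7e-20. Without renormalization the tumour rise was not called (0.20; adjusted p from 0.00142 to 0.146 in 12 other settings).

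Gsta2, a glutathione transferase gene, read 8.47, 8.56, 8.56 and 8.62 in the control cultures and 4.20, 3.94, 4.34 and 4.20 in the treated ones. Tumour values were from 8.85 to 9.65 (median 9.45) in control tumours and from 9.08 to 9.88 (median 9.36) in treated tumours, and these overlapped almost fully. Treated cultures lay below background, so the fall is at least 16.9-fold against the background level, and the difference was 4.45 ± 0.19 SE (adjusted p = 2.3e-17). The same held for the cilium gene Cfap54 (at least 15.4-fold lower in cells, tumour change -0.05), the gasdermin gene Gsdmc (at least 14.7-fold, -0.33) and the carbonic anhydrase gene Car6 (at least 13.3-fold, -0.27). Nupr1, a stress-induced chromatin regulator gene, fell by 4.00 in cells to a mean of 4.49 and had a tumour change of -0.04. Art3, an ADP-ribosyltransferase family gene, was at least 4.87-fold lower in cells and had a tumour value of 0.33 that did not pass (adjusted p = 0.0562). Dync1i1, a dynein chain gene, differs from these in that it lay below background in control tumours too (3.71 against 7.75 in control cells), so there was no level from which it could fall. The tumour changes of these 7 genes after Sparcl1 did not pass the test.

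The 8 largest negative differences were rises in cells that were not called in tumours, with 1 exception. The histone genes H4c8 and H3c15 and the scaffold gene Strip2 came up from below background in cells, by at least 6.76-, 3.9- and 3.08-fold, and stayed below background in control and treated tumours, with group means from 2.27 to 2.89. Serpini1, the neuroserpin gene, came up at least 9.23-fold in cells and likewise read 4.21 and 4.09 in tumours. Mcam, a melanoma cell adhesion gene, rose by 3.61 ± 0.11 SE in cells and had a tumour change of 0.21 ± 0.16 SE. Tfrc encodes the transferrin receptor that brings iron into cells. It read 7.54, 7.38, 7.57 and 7.66 in the control cultures and 10.72, 10.71, 10.82 and 10.77 in the treated ones, and tumours ranged from 10.00 to 10.91 (median 10.51) in control tumours and from 10.06 to 10.62 (median 10.40) in treated tumours. Treated cultures thus read close to control tumours, and the tumour change of -0.20 ± 0.10 SE did not pass (adjusted p = 0.176). The sterol enzyme gene Hsd17b7 is described with its pathway and Dusp1, which fell in tumours, with the genes of opposite direction.

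**Figure D3:**
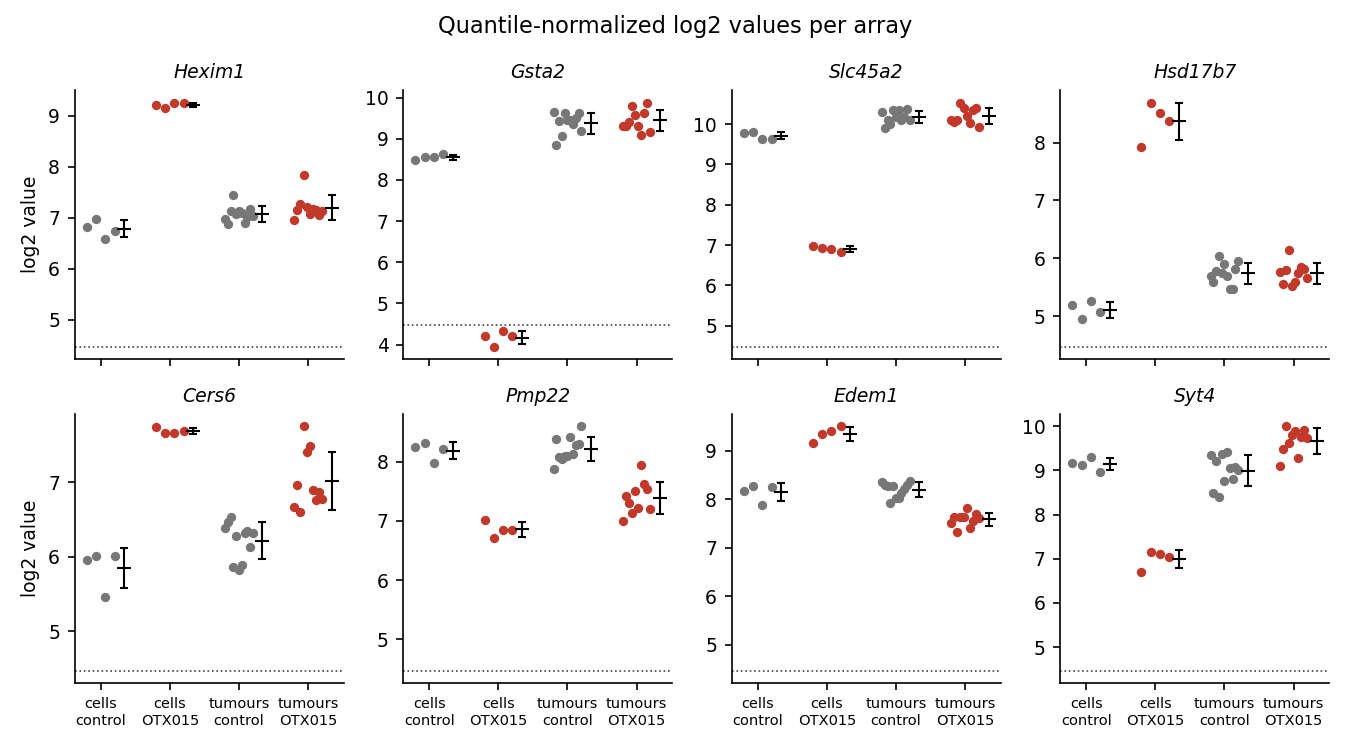
Quantile-normalized log2 values of 8 genes per array in 4 control cultures, 4 treated cultures, 11 control tumours and 10 treated tumours; the black mark and bar beside each group give its mean and SD, and the dotted line is the background level of 4.47. The top row shows genes that changed in cells only (Hexim1, Gsta2, Slc45a2, Hsd17b7); below, Cers6 rose and Pmp22 fell in both, and Edem1 and Syt4 changed in opposite ways.

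Gene groups with a strong response in culture showed the same contrast with tumours. Among 10 measured histone genes, whose products package DNA, 8 rose in cells and 0 fell, with a median log2 change of 2.07, while 0 were called in tumours (median 0.02) and 8 had a negative difference. H3c1 changed by 2.98 in cells and 0.20 in tumours (tumour adjusted p = 0.179), and H2bc21 by 2.57 in cells and 0.13 in tumours (adjusted p = 0.411). For all genes the medians were 0.003 in cells and 0.005 in tumours, and 18.8% rose in cells. Arrays of this kind are primed on the poly(A) tail of RNA, and most histone messages of dividing cells lack a poly(A) tail. RNA that stays in the nucleus moved with the treatment in culture as well: the mean of Malat1, Neat1 and 1 further such RNA was 5.86 to 6.06 in control cultures, 7.04 to 7.60 in treated ones, 5.08 to 6.02 in control tumours and 5.05 to 5.88 in treated tumours. Malat1 changed by 2.24 in cells and 0.20 in tumours and Neat1 by 1.34 in cells and -0.08 in tumours, with neither called in tumours. The part of this shift in the other results was not tested.

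Cholesterol synthesis genes rose in cells and not in tumours by the same test. Of 19 measured genes 17 rose and 0 fell (median 0.66), whereas in tumours 0 rose and 1 fell (median 0.005), and 15 had a negative difference. Hsd17b7, which acts late in the pathway, read 5.19, 4.95, 5.26 and 5.07 in the control cultures and 7.93, 8.68, 8.50 and 8.36 in the treated ones. Tumours ranged from 5.47 to 6.04 (median 5.74) in control tumours and from 5.53 to 6.15 (median 5.76) in treated tumours, and these overlapped. Its change was 3.25 ± 0.13 SE in cells, and its tumour value of 0.00 ± 0.08 SE left a difference of -3.25 ± 0.16 SE (limma adjusted p = 1.29e-15). Insig1, which holds the sterol sensor in the endoplasmic reticulum, changed by 1.87 in cells and -0.16 in tumours, and the last-step reductase gene Dhcr7 by 1.79 in cells and 0.03 in tumours, neither called in tumours.

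The promoters of the sterol genes were searched for short motifs. CCAAT boxes, which NF-Y binds, were taken as ATTGG on both strands in RefSeq promoters (GRCm38.p6, 250 bases before to 50 after the gene start). They occurred in 15 of the 15 listed sterol genes with a promoter and in 42.3% of the 13605 genes tested that had one. The other motifs searched were less frequent in these 15 genes. A fixed form of the sterol response element occurred in 0 of them. It occurred in 9 of the 13605 genes, so its absence from 15 says little. The E-box CACGTG occurred in 4 (26.7%, against 10.2% of all genes with a promoter). The interferon motif described below occurred in 1 (6.67%, against 3.59%). These shares were not tested. A match is a description of the letters and not a binding site. The stretch before the start of Hsd17b7 (chr1:169969206-169969455, minus strand) is shown because it belongs to the gene with the largest difference of the pathway. Its 3 matches to ATTGG are in capitals, the nearest starting 12 bases before the gene start.
Hsd17b7: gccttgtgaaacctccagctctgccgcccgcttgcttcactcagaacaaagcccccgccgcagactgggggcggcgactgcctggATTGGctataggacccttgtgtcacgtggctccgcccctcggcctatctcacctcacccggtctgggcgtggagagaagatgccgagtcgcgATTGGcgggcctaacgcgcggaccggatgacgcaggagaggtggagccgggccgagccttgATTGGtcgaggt

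Many growth and energy metabolism genes fell in cells. Over all genes 20.7% fell and 18.8% rose in cells, and 7.5% fell and 8.67% rose in tumours; of the 8469 genes above background, to which most members of these lists belong, 2879 fell and 2586 rose in cells. Of 34 genes of MYC targets and ribosome biogenesis, 21 fell and 4 rose in cells (median -0.36), and 0 fell and 2 rose in tumours (median 0.05). Wdr12, a ribosome biogenesis factor gene, changed by -1.28 in cells and 0.09 in tumours, and Odc1, the polyamine enzyme gene and a MYC target, went the other way with 1.58 in cells and 0.18 in tumours; neither tumour value passed. Of 25 oxidative phosphorylation genes 19 fell and 2 rose in cells (median -0.41), 2 rose and 0 fell in tumours, and 19 had a positive difference. The complex II gene Sdhb changed by -0.90 in cells and 0.04 in tumours and the complex I gene Ndufs1 by -1.11 in cells and -0.03 in tumours. Of 24 glycolysis and hypoxia genes 16 fell and 4 rose in cells (median -0.40), while 1 fell and 0 rose in tumours. Pdk1, a pyruvate dehydrogenase kinase gene, changed by -1.61 in cells and -0.07 in tumours, and the hypoxia-induced mitophagy gene Bnip3 by -1.37 in cells and 0.07 in tumours, with the tumour values not called. Against these falls, 19 of 26 G1/S genes rose in cells and 0 fell (median 0.54), and 1 rose in tumours.

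**Figure D4:**
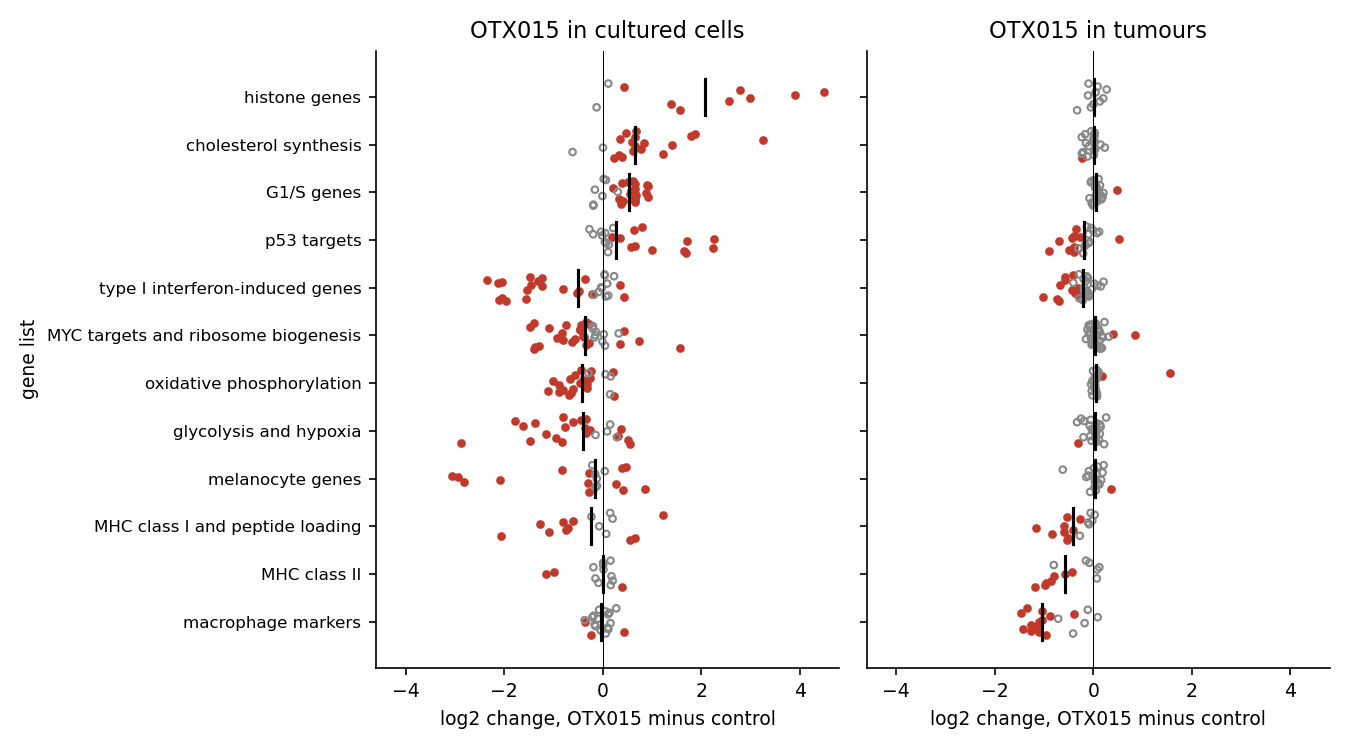
Log2 changes with OTX015 for the genes of 12 lists, 1 point per gene, in cells (left) and tumours (right); filled red points were called, open points were not, and the black bar is the median of the list. Histone and cholesterol synthesis members lie to the right of 0 in cells and around 0 in tumours, while macrophage markers lie around 0 in cells and at a median of -1.04 in tumours.

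Pigment cell genes changed both ways in cells, and few were called in tumours: of 19 melanocyte genes 8 fell and 5 rose in cells (median -0.15), and 1 rose and 0 fell in tumours (median 0.04; 5 rose with each array centred on its median). The share falling in cells was above that of all genes (20.7%) and closer to that of the 8469 genes above background (2879 fell). Slc45a2, a melanosome transporter gene, read 9.78, 9.81, 9.64 and 9.63 in the control cultures and 6.98, 6.92, 6.91 and 6.82 in the treated ones. Tumours ranged from 9.90 to 10.37 (median 10.17) in control tumours and from 9.94 to 10.53 (median 10.15) in treated tumours. The cultures were separated by a wide gap and the tumours overlapped, giving a difference of 2.84 ± 0.13 SE (adjusted p = 1.9e-16). Rab27a, which moves melanosomes, changed by -3.06 in cells and -0.10 in tumours, and the channel gene Trpm1 by -2.94 in cells and -0.14 in tumours, with tumour adjusted p of 0.559 and 0.481. In the unfolded protein and integrated stress response, 15 of 27 genes fell and 10 rose in cells, where 20.7% and 18.8% of all genes did. In tumours 3 fell and 2 rose, near the 7.5% and 8.67% of all genes. Trib3, a pseudokinase gene induced by stress, fell by 3.38 in cells and had a tumour value of -0.07, while the chaperone gene Calr rose by 1.22 in cells with 0.03 in tumours. Fn1, the fibronectin gene, rose by 1.73 in cells and read -0.09 in tumours (not called). Col15a1, a basement membrane collagen gene, did the reverse: it rose in tumours by 1.08 ± 0.06 SE (limma adjusted p = 7.03e-11, all 10 treated tumours above every control) and had a cell value of -0.13 (not called, below background). Its control tumours lay below background too (mean 3.98), so the tumour rise is at least 1.5-fold against that level.

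Among the 258 genes higher in both, 93 differed in the size of the change, 89 of them with the larger rise in cells. Cers6, a ceramide synthase gene, is the clearest of the 10 named by the size of their smaller change. Its levels were 5.95, 6.00, 5.45 and 6.00 in the control cultures and 7.73, 7.65, 7.66 and 7.69 in the treated ones. Tumours ranged from 5.82 to 6.53 (median 6.31) in control tumours and from 6.60 to 7.75 (median 6.88) in treated tumours. No treated sample overlapped a control in either setting. Cers6 rose 3.56-fold in cells and 1.74-fold in tumours, and the rise was smaller in tumours by 1.03 on the log2 scale (SE 0.23, limma adjusted p = 0.00091).

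Nrp2, the neuropilin gene for a co-receptor of semaphorins and VEGF, was the other named gene with all 10 treated tumours above every control. It changed by 1.40 in cells and 0.81 in tumours, and its difference of -0.59 lay near the threshold (adjusted p = 0.044). Cited1, a transcriptional co-activator gene, changed by 1.27 in cells and 0.83 in tumours, with 9 of 10 treated tumours above every control and a difference of -0.44 ± 0.31 SE that was not called (adjusted p = 0.299). Tubb3, a neuronal beta-tubulin gene, rose by 1.62 and 0.76 in that order, and Megf9, an EGF-repeat membrane protein gene, by 1.64 and 0.75. The differences were small for the oxysterol-binding family gene Osbpl6 (0.78 in cells and 0.65 in tumours), the nucleolar gene Knop1 (0.74 in cells and 0.58 in tumours) and the DNA repair gene Zswim7 (0.73 in cells and 0.57 in tumours), which lay between -0.12 and -0.16 and were not called, with SE of 0.19 to 0.26. Control tumours lay below background for Tubb3 (mean 4.39) and Knop1 (4.35). Against that level their tumour rises are at least 1.59-fold and 1.38-fold, so the sizes of their differences are uncertain.

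Ccn2, a matricellular growth factor gene, and Kcnj13, a potassium channel gene, had the larger values in tumours, though their differences were not called. Ccn2 changed by 0.76 in cells and 0.83 in tumours and Kcnj13 by 0.75 in cells and 1.46 in tumours. Both were below background in control cells (3.72 and 3.82) and near it in treated ones (4.48 and 4.58). Kcnj13 ranged from 3.82 to 5.13 (median 4.05) in control tumours and from 4.48 to 8.84 (median 5.13) in treated tumours, with treated tumour 4 highest and far from the other 9. In a fit that pools the spread of all 29 arrays the cell rise of Kcnj13 was not called (adjusted p from 0.00068 to 0.386 in 11 other settings).

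The genes lower in both, 242 in all, held immune and interferon-induced genes beside metabolic ones, and 92 differed in size, all with the larger fall in cells. Pmp22, a myelin protein gene also active in neural crest cells, read 8.25, 8.32, 7.97 and 8.21 in the control cultures and 7.02, 6.71, 6.85 and 6.84 in the treated ones. Tumours ranged from 7.87 to 8.60 (median 8.13) in control tumours and from 7.0 to 7.94 (median 7.36) in treated tumours. Treated cultures lay below all controls, as did 9 of 10 treated tumours. The falls were 2.52-fold and 1.77-fold, with limma adjusted p of 1.03e-07 and 6.43e-06. The difference of 0.51 ± 0.18 SE was called (adjusted p = 0.0262), and was lost without renormalization (0.20; adjusted p from 0.00201 to 0.428 in 12 other settings). The urea cycle gene Ass1 changed by -1.33 in cells and -0.78 in tumours, the scaffold gene Ahnak2 by -2.22 in cells and -0.72 in tumours and the copper oxidase gene Cp by -2.10 in cells and -0.71 in tumours; 8, 6 and 5 of 10 treated tumours lay below every control. Cebpb, a transcription factor gene of inflammation and stress, changed by -1.05 in cells and -0.88 in tumours.

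Cbr2, a carbonyl reductase gene, had the largest smaller change of this class, -1.73 in cells and -1.32 in tumours. It read 5.19, 5.26, 5.21 and 5.24 in the control cultures and 3.22, 3.68, 3.47 and 3.59 in the treated ones. Tumours ranged from 6.29 to 7.36 (median 6.74) in control tumours and from 4.18 to 6.56 (median 5.44) in treated tumours, and 9 of 10 treated ones lay below every control. Its difference of 0.41 ± 0.37 SE was not called (adjusted p = 0.434). Treated cultures lay below background, so the fall of Cbr2 in cells is at least 1.68-fold against that level. Gbp2, an interferon-induced GTPase gene, changed by -1.16 in cells and -0.90 in tumours with a difference of 0.26 ± 0.27 SE (adjusted p = 0.51), and its treated tumours fell below background. Lcp1, the actin-bundling gene of leukocytes, changed by -2.33 in cells and -0.82 in tumours, from a level of 5.59 in control cells and 8.23 in control tumours. Its treated tumours overlapped the controls, with 1 of 10 below every one of them, and its difference of 1.51 was called (adjusted p = 0.00341) but not when its probe sets were averaged (0.87; adjusted p from 9.12e-05 to 0.0819 in 12 other settings).

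Part of the type I interferon-induced genes, which restrict viruses, fell in each setting. Of 30 measured, 18 fell and 2 rose in cells (median -0.50), and 11 fell and 0 rose in tumours (median -0.20), against 20.7% and 7.5% of all genes falling. Of these, 7 fell in both: Parp12, Ifit1, Ifit3, Ifih1, Xaf1, Cmpk2 and Mx1. The falls were larger in cells by the test of the difference for Parp12 (-2.35 in cells and -0.57 in tumours; adjusted p = 8.06e-06) and Ifit1 (-1.96 in cells and -0.70 in tumours; adjusted p = 0.00338). Ifit2 and Ifi27 changed by -2.10 and -2.04 in cells, and by -0.21 and 0.21 in tumours, where neither was called. Ifit3 read 5.65, 5.83, 5.68 and 5.82 in the control cultures and 4.12, 4.11, 4.18 and 4.35 in the treated ones. Tumours ranged from 4.85 to 6.67 (median 6.24) in control tumours and from 4.61 to 5.84 (median 5.55) in treated tumours. The cultures did not overlap, the tumours did, and all 10 treated tumours lay below the control mean. Among the immune checkpoint and cytokine genes, Cd274, which encodes PD-L1, also fell in both, by -1.41 ± 0.09 SE in cells and -0.50 ± 0.13 SE in tumours (difference 0.91, adjusted p = 0.00176). Of the 27 genes of its list, 6 fell and 1 rose in cells, a share of falls near that of all genes. In tumours 10 fell and 3 rose (6 and 4 without the 3 arrays of lowest spread). Across both settings, 2 of the 27 fell in both and 1 rose in both.

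The interferon-stimulated response element was searched in the same promoters as GAAA, any 2 bases and GAAA, on both strands. It was found in 3.59% of the 13605 genes with a promoter, in 9 of 20 genes of the interferon list (45.0%), and in 3 of the 6 genes of that list that fell in both and had a promoter. By class, 7.39% of genes lower in both held it (15 of 203), 1.83% of those higher in both, 2.61% of those higher in cells and lower in tumours, and 0.685% of those lower in cells and higher in tumours. Shown are the 250 bases before the start of the genes of this list with the largest smaller fall, Ifit3 (chr19:34583279-34583528, plus strand) and its neighbour Ifit1 (chr19:34640639-34640888, plus strand). Capitals mark the matches, which lie on the opposite strand in each case and so read as TTTC, 2 bases and TTTC, starting 156 and 122 bases before the gene start in Ifit3 and 104 and 85 in Ifit1.
Ifit3: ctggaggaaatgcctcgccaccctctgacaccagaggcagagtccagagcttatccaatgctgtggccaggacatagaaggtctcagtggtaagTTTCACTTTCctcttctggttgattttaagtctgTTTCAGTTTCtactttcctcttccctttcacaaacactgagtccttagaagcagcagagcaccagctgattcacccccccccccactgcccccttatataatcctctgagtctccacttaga
Ifit1: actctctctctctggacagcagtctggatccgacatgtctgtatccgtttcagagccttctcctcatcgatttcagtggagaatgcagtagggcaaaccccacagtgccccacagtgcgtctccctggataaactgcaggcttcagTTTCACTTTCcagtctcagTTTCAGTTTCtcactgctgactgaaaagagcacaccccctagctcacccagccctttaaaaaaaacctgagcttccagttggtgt

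Macrophage and antigen presentation genes fell in tumours, and the macrophage markers lay below background in untreated cells. Of 19 macrophage markers, 14 fell and 0 rose in tumours (median -1.04), against 7.5% of all genes falling, while 2 fell and 1 rose in cells. Their mean ranged from 5.71 to 7.51 in control tumours and from 4.51 to 6.16 in treated tumours, and from 3.59 to 3.68 and 3.59 to 3.63 in control and treated cultures. Without the 3 arrays of lowest spread 10 fell, and without any 1 array 11 to 15 did. Fcrls, a marker of macrophages and microglia, ranged from 5.73 to 7.23 (median 6.05) in control tumours and from 4.18 to 5.21 (median 4.92) in treated tumours. All 10 treated tumours lay below every control, a fall of 1.47 on the log2 scale (SE 0.18, limma adjusted p = 6.43e-06). In cells it stayed below background. Neutrophil markers showed 0 called of 9 in cells and in tumours, and 4 of 16 T and NK cell markers fell in tumours, a list of which 1 gene was above background there. The part of these cells in the other tumour changes was not tested.

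MHC class II genes present antigen on macrophages and dendritic cells and can be induced in melanoma cells. Of 13, 7 fell and 0 rose in tumours (median -0.57; 4 without the 3 arrays of lowest spread), and 2 fell and 1 rose in cells. H2-Aa ranged from 7.04 to 9.58 (median 7.99) in control tumours and from 6.28 to 7.88 (median 6.75) in treated tumours, and 7 of 10 treated ones lay below every control (change -1.18 ± 0.31 SE). Its cell rise of 0.39 was called from 4.34, below background, to 4.73, and was not called with the spread of all 29 arrays pooled (adjusted p from 0.000374 to 0.635 in 11 other settings). H2-DMb1, which helps to load peptides, fell in both (-1.14 in cells and -0.57 in tumours), from a level of 4.61 in control cells. In the MHC class I group 7 of 15 genes fell and 3 rose in cells, and 9 fell and 0 rose in tumours. Over all genes 20.7% fell and 18.8% rose in cells and 7.5% fell in tumours, so the share of the class I genes rising in cells lay near that of all genes. The non-classical gene H2-T23 changed by -2.07 in cells and -0.27 in tumours, the latter not called (adjusted p = 0.267).

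**Figure D5:**
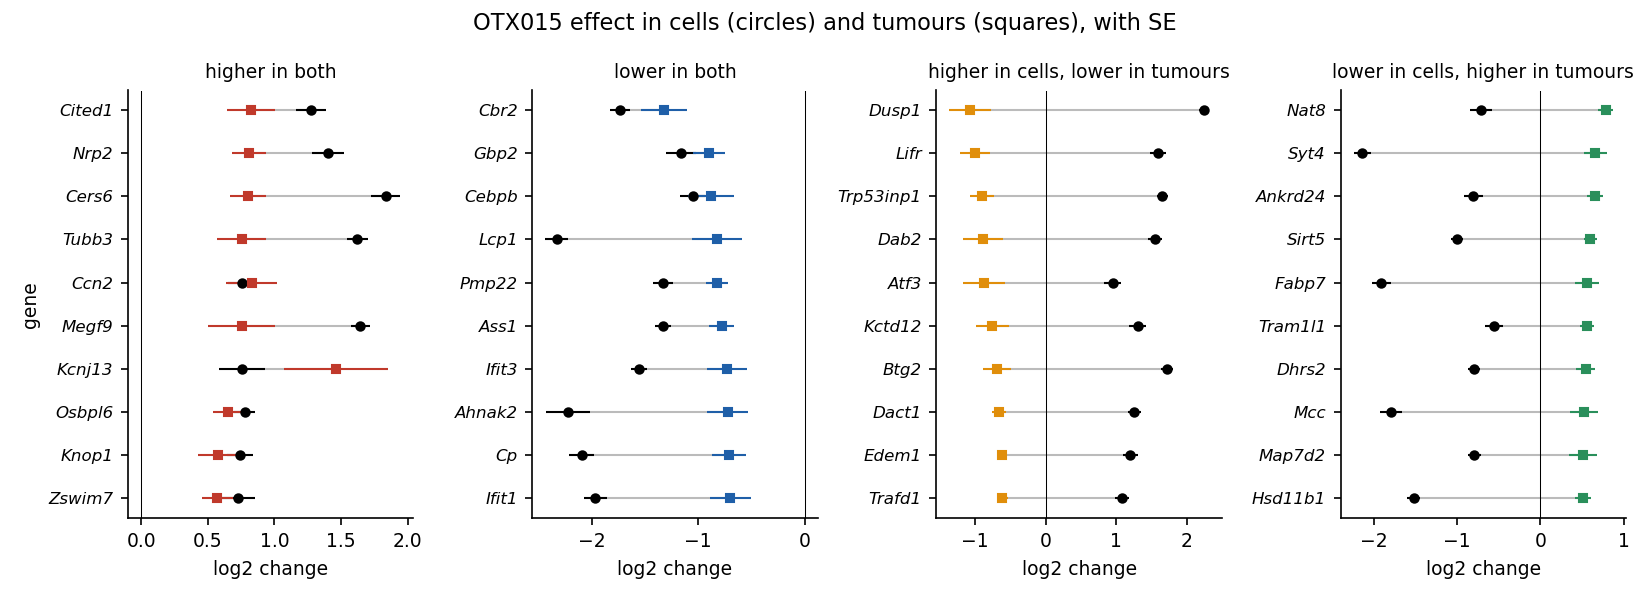
Log2 change (OTX015 minus control) with its SE in cells (black circles, 4 against 4 cultures) and tumours (coloured squares, 10 against 11 tumours) for the 10 genes of each class with the largest smaller change; each panel has its own x scale. Cers6, Tubb3 (control tumours below background) and Lcp1 (treated cultures below background) changed more in cells, and Cbr2 (treated cultures below background) and Osbpl6 by similar amounts. The circles and squares of the right-hand panels lie on opposite sides of 0, as that choice of genes requires.

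Genes that rose in cells and fell in tumours, 192 in all, included stress and p53 response genes. The difference was called for 191 of them, a count that the choice of opposite directions largely fixes. Edem1, which sends misfolded glycoproteins from the endoplasmic reticulum to degradation, separated the groups fully in both settings. Its levels were 8.17, 8.28, 7.88 and 8.26 in the control cultures and 9.16, 9.34, 9.40 and 9.50 in the treated ones. Tumours ranged from 7.93 to 8.38 (median 8.27) in control tumours and from 7.33 to 7.82 (median 7.62) in treated tumours. Every treated culture lay above every control and every treated tumour below every control. The changes were 1.20 ± 0.10 SE (adjusted p = 6.38e-07) and -0.61 ± 0.06 SE (adjusted p = 6.9e-07) in limma. Trafd1, an inhibitor gene of innate immune signalling, did the same with 1.08 in cells and -0.61 in tumours, its treated tumours at a mean of 4.21, below background. For the Wnt pathway regulator gene Dact1, which changed by 1.26 in cells and -0.66 in tumours, 9 of 10 treated tumours lay below every control.

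Dusp1 encodes a phosphatase that switches off MAP kinases and headed this class by the size of its smaller change. It read 5.85, 5.80, 5.92 and 5.76 in the control cultures and 8.17, 8.04, 8.09 and 7.99 in the treated ones. Tumours ranged from 8.11 to 9.94 (median 9.66) in control tumours and from 6.71 to 9.80 (median 8.28) in treated tumours. Tumours started from a level above that of treated cultures, and 3 of 10 treated tumours lay below every control. Its difference was -3.31 ± 0.49 SE (limma adjusted p = 4.13e-06), from 2.24 ± 0.07 SE in cells and -1.07 ± 0.29 SE in tumours (adjusted p = 0.0152). Lifr, the receptor gene for leukemia inhibitory factor, changed by 1.59 in cells and -1.0 in tumours. The endocytic adaptor gene Dab2 changed by 1.55 in cells and -0.89 in tumours, the stress transcription factor gene Atf3 by 0.95 in cells and -0.87 in tumours and Kctd12, for a subunit of GABA-B receptors, by 1.30 in cells and -0.75 in tumours. Dusp1, Lifr, Dab2 and Atf3 were higher in control tumours than in control cultures (means 9.46, 6.17, 7.71 and 7.73 against 5.83, 5.09, 6.03 and 6.18). This did not hold for the whole class. Trp53inp1, described below, was lower in control tumours (7.11 against 7.78), and for Edem1 control tumours and control cultures overlapped. Macrophage markers fell in the same tumours, as given above, and their part in these changes was not tested.

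Several p53 targets, whose products halt the cell cycle or promote cell death, rose in cells and fell in tumours. Of 22 measured, 12 rose and 0 fell in cells (median 0.28), and 9 fell and 1 rose in tumours (median -0.19), against 18.8% rising in cells and 7.5% falling in tumours over all genes. Of the list, 6 genes both rose in cells and fell in tumours (Trp53inp1, Ccng1, Sesn1, Btg2, Phlda3 and Ei24), 1 rose in both (Gadd45a) and 14 had a negative difference. Trp53inp1, which promotes p53-driven arrest, read 7.78, 7.87, 7.86 and 7.61 in the control cultures and 9.48, 9.37, 9.44 and 9.44 in the treated ones. Tumours ranged from 6.44 to 7.63 (median 7.14) in control tumours and from 5.23 to 6.86 (median 6.22) in treated tumours. The cultures did not overlap, and 8 of 10 treated tumours lay below every control, for changes of 1.65 ± 0.07 SE and -0.90 ± 0.17 SE. The cyclin G1 gene Ccng1 changed by 1.01 in cells and -0.49 in tumours and the antiproliferative gene Btg2 by 1.71 in cells and -0.69 in tumours. Plk2, a kinase gene of the stress response, changed by 2.24 in cells and -0.30 in tumours, the latter not called. With each array centred on its median, 5 p53 targets fell and 2 rose in tumours, with probe sets averaged 6 fell, and without the 3 arrays of lowest spread 7 did. The fall of Btg2 was not called when its probe sets were averaged (-0.23; adjusted p from 0.000382 to 0.291 in 12 other settings).

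The 179 genes lower in cells and higher in tumours changed little in tumours, with a median of 0.28 on the log2 scale. Syt4, a synaptotagmin family vesicle protein gene of neurons and neuroendocrine cells, had the largest difference among the 10 named. Its levels were 9.18, 9.12, 9.30 and 8.97 in the control cultures and 6.71, 7.14, 7.11 and 7.04 in the treated ones. Tumours ranged from 8.39 to 9.42 (median 9.05) in control tumours and from 9.09 to 9.99 (median 9.74) in treated tumours. Cells and tumours started from similar levels, treated cultures ended far below and 8 of 10 treated tumours lay above every control. The difference was 2.80 ± 0.23 SE (limma adjusted p = 1.08e-10). In 4 genes all 10 treated tumours lay above every control: the acetyltransferase gene Nat8 (-0.71 in cells and 0.78 in tumours), Ankrd24 (-0.81 in cells and 0.65 in tumours), the mitochondrial deacylase gene Sirt5 (-1.0 in cells and 0.60 in tumours) and the translocon-associated gene Tram1l1 (-0.56 in cells and 0.56 in tumours).

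Sirt5 read 5.59, 5.50, 5.78 and 5.64 in the control cultures and 4.72, 4.58, 4.58 and 4.63 in the treated ones. Tumours ranged from 5.44 to 5.91 (median 5.78) in control tumours and from 6.09 to 6.71 (median 6.30) in treated tumours, so that neither setting showed an overlap. Fabp7, the brain-type fatty acid binding gene of neural crest derivatives, changed by -1.91 in cells and 0.56 in tumours, and its treated cultures reached background. Hsd11b1, which activates glucocorticoids, changed by -1.52 in cells and 0.51 in tumours, the reductase gene Dhrs2 by -0.80 in cells and 0.54 in tumours, Mcc by -1.79 in cells and 0.53 in tumours and the microtubule gene Map7d2 by -0.79 in cells and 0.51 in tumours. Treated cultures lay below background for Tram1l1, Hsd11b1, Mcc and Map7d2. Against that level their falls in cells are at least 1.34-, 2.37-, 3.35- and 1.26-fold. The cystine transporter gene Slc7a11, below background in every group, fell by 0.97 in cells and had a tumour rise of 0.21 that turned to -0.03 without renormalization (adjusted p from 0.00341 to 0.716 in 10 other settings). E-boxes (CACGTG, searched on both strands), the letters bound by MYC and the MITF family, occurred in 17.1% of the genes of this class with a promoter (25 of 146). The share was 10.2% of all genes with a promoter. It was 11.0% of those higher in both, 7.88% of those lower in both and 9.8% of those higher in cells and lower in tumours. These shares were not tested.

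The size of several tumour changes lay near the threshold, and the call was lost when 1 array was left out. For Megf9 this held without control tumours 4, 6, 7, 9, 10 and 11 or treated tumours 2, 5, 6, 7, 8 and 9 (12 arrays; limma adjusted p from 0.051 to 0.071), and without control tumour 11 its difference of -1.04 was called (adjusted p = 0.0223). Atf3 lost its call without control tumours 4, 5, 6, 7, 8, 9, 10 and 11 or treated tumours 1, 2, 4, 5, 6, 7 and 10 (15 arrays; adjusted p from 0.0531 to 0.0886). That of Dab2 was lost without control tumours 2, 7, 9, 10 and 11 or treated tumours 1, 5, 9 and 10 (9 arrays; adjusted p from 0.0502 to 0.0647). Map7d2 depended on control tumours 2, 10 and 11 or treated tumours 1, 2, 3, 5, 7 and 10 (9 arrays; adjusted p from 0.0501 to 0.0648). For Mcc the arrays were control tumours 6, 10 and 11 or treated tumours 2, 5, 6, 9 and 10 (8 arrays; adjusted p from 0.0504 to 0.0668). For Kctd12 they were control tumours 2, 9 and 11 or treated tumours 1 and 10 (5 arrays; adjusted p from 0.0515 to 0.0628). The difference between the effects was lost in the same way for 5 genes that changed alike in both. For Nrp2 the call was lost without control cultures 1, 3 and 4, treated cultures 1, 2 and 4, control tumours 2, 3, 4, 7, 9 and 11 or treated tumours 1, 2, 3, 8, 9 and 10 (18 arrays; adjusted p from 0.05 to 0.148). For Ifit3 it was lost without control cultures 1, 2, 3 and 4, treated cultures 1, 2 and 3, control tumour 8 or treated tumours 4, 5, 6, 8, 9 and 10 (14 arrays; adjusted p from 0.0514 to 0.0783). Ass1 lost it without control cultures 1, 3 and 4, treated cultures 2, 3 and 4, control tumour 7 or treated tumours 1, 2 and 7 (10 arrays; adjusted p from 0.051 to 0.0874). Tubb3 did so without control cultures 1 and 3 or treated cultures 1 and 3 (4 arrays; adjusted p from 0.0519 to 0.0691). Pmp22 lost its call without control cultures 1 and 2 or treated culture 2 (3 arrays; adjusted p from 0.052 to 0.0664). The cell rise lost its call with 40 arrays in 1 fit for Atf3 (adjusted p = 0.0832; from 6.97e-06 to 0.0962 in 12 other settings), Neat1 (0.0575; from 3.79e-07 to 0.0575 in 12) and Ccn2 (0.0538; from 1.11e-05 to 0.0538 in 11). In that fit the difference was lost for Neat1 (0.0886; from 0.00161 to 0.0886 in 12) and H2-DMb1 (0.0575; from 0.000976 to 0.0575 in 11). Under another setting the tumour call was also lost for Knop1 (adjusted p up to 0.0724), Fabp7 (0.137), Dhrs2 (0.0532), Cp (0.0592) and Parp12 (0.105).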

How the data were processed

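Each sample was hybridised to 1 Affymetrix array, and 500 ng of its RNA was labelled. The deposited values are on a log2 scale; per the submitters' processing notes the authors used RMA, through the Transcriptome Analysis Console (versions not stated there). RMA removes background, equalises the distributions of the arrays in a run and combines probes into probe sets, and the sources used here do not say which arrays formed a run. RMA compresses differences near background, so folds from or to that level are understated or uncertain.

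From the deposited log2 values, 104 control probe sets were left out and the 29 arrays were quantile normalized over 45037 probe sets. Of the probe sets in the table, 28898 named 1 gene in GEO's annotation of the array, 551 several and 15588 none. For each of 17097 genes the brightest probe set naming it alone (by mean over the 40 arrays) was kept. The background level of 4.47 is the 95th percentile of the means of 83 receptor probe sets.

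Effects in cells (8 arrays) and in tumours (21 arrays) were fitted separately, and their difference in 1 fit of the 29 arrays, with limma 3.58.1 in R 4.3.3 (lmFit, eBayes, two-sided), adjusted by Benjamini-Hochberg over the 17097 genes. No test of overlap or of a list was made. Lists are described by counts and medians.

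Named were Brd2, Brd3, Myc and Hexim1, the 10 genes of each class with the largest smaller change, the 8 largest differences each way and up to 4 members of each list by the smallest adjusted p of the difference; predicted genes were left out. The members of the comparison and the lists were chosen with earlier results of these data known. Col15a1 and Fn1 come from the fibroblast list. Sesn1, Phlda3, Ei24, Gadd45a, Ifih1, Xaf1, Cmpk2 and Mx1 are named as members of counts and were picked after their values were seen. Promoters are RefSeq's for GRCm38.p6. The fits were tested on simulated data with known changes. Alternatives covered normalization, dim genes, probe set choice, variance model, array weights, thresholds, pooling, a replicate block and the removal of single arrays.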

Additional observations from a re-analysis of the deposited data

Results flagged for a closer look

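Among the genes named above, 25 of 267 groups of 4 to 10 arrays held 1 sample whose gap to the nearest other was large against the range of the group (Dixon's criterion). By chance about 1 in 20 such groups is picked. Values are log2 levels, and far refers to the range of the group, which can be narrow. Treated tumour 4 was far above the rest of its group for Brd2 (8.56), Hexim1 (7.84), Kcnj13 (8.84), H4c8 (3.11) and Hsd17b7 (6.14) and far below it for Fabp7 (4.68), Gsdmc (5.08), Wdr12 (6.74) and Parp12 (4.97). Control culture 3 was far below the rest of its group for Nrp2 (7.99), Cers6 (5.45), Mcc (5.90) and Dhcr7 (6.85). Treated tumour 1 was far below the rest of its group for Myc (6.65), Lcp1 (6.41) and Neat1 (5.12). Treated tumour 5 was far above the rest of its group for Ankrd24 (7.07) and Calr (10.42). Treated culture 1 was far above the rest of its group for Dhcr7 (9.32) and far below it for Car6 (4.00). Treated culture 4 was far below the rest of its group for Sparcl1 (3.56). Control culture 2 was far below the rest of its group for Plk2 (5.00). Treated culture 2 was far below the rest of its group for Ccng1 (9.67). Control culture 4 was far above the rest of its group for Insig1 (8.03). Control culture 1 was far above the rest of its group for Col15a1 (4.07). The values given here for Sparcl1, Car6, H4c8 and Col15a1 lie below the background of 4.47. Treated tumour 4 is also 1 of the 3 arrays of lowest spread.

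The effect of OTX015 differed between tumours and cells, by limma's test of the difference, for 78 of the 89 named genes, a share that the choice of many of them by that difference raises. Values are log2 changes in tumours minus log2 changes in cells. Of the genes higher in both these were Nrp2 (-0.59), Cers6 (-1.03) and Tubb3 (-0.87). Of the genes lower in both these were Lcp1 (1.51), Pmp22 (0.51), Ass1 (0.55), Ifit3 (0.83), Ahnak2 (1.5), Cp (1.38), Ifit1 (1.27), Parp12 (1.78), Cd274 (0.91) and H2-DMb1 (0.57). Of the genes higher in cells and lower in tumours these were Dusp1 (-3.31), Lifr (-2.58), Trp53inp1 (-2.55), Dab2 (-2.44), Atf3 (-1.82), Kctd12 (-2.05), Btg2 (-2.41), Dact1 (-1.91), Edem1 (-1.82), Trafd1 (-1.70), Ccng1 (-1.49) and H2-Aa (-1.58). Of those lower in cells and higher in tumours these were Nat8 (1.5), Syt4 (2.80), Ankrd24 (1.46), Sirt5 (1.60), Fabp7 (2.47), Tram1l1 (1.12), Dhrs2 (1.34), Mcc (2.32), Map7d2 (1.30), Hsd11b1 (2.03), Sparcl1 (5.07) and Slc7a11 (1.18). Among genes called in at most 1 setting, the tumour value lay above the cell value for Myc (1.12), Gsta2 (4.45), Cfap54 (4.30), Gsdmc (4.18), Nupr1 (3.95), Dync1i1 (3.83), Art3 (3.83), Car6 (3.68), Wdr12 (1.37), Ifi27 (2.25), Ifit2 (1.89) and H2-T23 (1.80). It did so too for Pdk1 (1.53), Trib3 (3.30), Sdhb (0.93), Ndufs1 (1.08), Slc45a2 (2.84), Rab27a (2.96), Trpm1 (2.80), Col15a1 (1.20) and Bnip3 (1.44). The tumour value lay below it for Brd2 (-2.02), Hexim1 (-2.31), H4c8 (-4.44), H3c15 (-4.01), Strip2 (-3.65), Serpini1 (-3.55), Tfrc (-3.42), Mcam (-3.39), Hsd17b7 (-3.25), H3c1 (-2.78), H2bc21 (-2.44) and Odc1 (-1.40). It did so as well for Plk2 (-2.54), Calr (-1.19), Insig1 (-2.04), Dhcr7 (-1.76), Fcrls (-1.60), Malat1 (-2.03), Neat1 (-1.43) and Fn1 (-1.82).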

How the results depend on the processing

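The deposited values without further normalization shift the median gene by -0.21 in tumours and give 9445 tumour calls (215 higher, 9230 lower), 31 genes higher in both, 1682 lower in both, 1247 higher in cells and lower in tumours and 17 the other way. With each array centred on its median, tumour calls split into 1947 higher and 1124 lower, against 1483 and 1282, and 144 of the 258, 169 of the 242, 128 of the 192 and 95 of the 179 class members given in the report were in the same class (order as below). In what follows the 4 classes are in the order higher in both, lower in both, higher in cells and lower in tumours, lower in cells and higher in tumours. Leaving out dim genes, which tests fewer genes, gave 846 tumour calls and 155, 126, 104 and 98 genes. Genes above background in both untreated settings, an alternative added after the data were seen, gave 691 tumour calls and 133, 117, 96 and 89. With 40 arrays in 1 fit the classes held 158, 168, 115 and 110 (cause not tested), at an adjusted p under 0.01 tumour calls fell to 1330 and the classes to 82, 98, 70 and 56. At 1.5-fold or more, differences came to 3244, cell calls to 3188, tumour calls to 218 and the classes to 10, 27, 14 and 5. The other settings kept all 7 counts within 1.5 times, but some of these counts were not free to change. With array weights only the test of the difference changed (6581 called). The cell calls (6765), tumour calls (2765) and class members were those of the main fits. Testing both effects in the fit that gives the difference left its 5581 calls as they were. Such unchanged results are no test of robustness, and the ranges of adjusted p over other settings include them. Leaving out 1 array gave 5055 to 5905 differences, 6239 to 6767 cell calls, 2417 to 2840 tumour calls and 214 to 278, 196 to 259, 165 to 212 and 148 to 215 genes in the classes. Without the 3 arrays of lowest spread, also added later, the classes held 268, 290, 219 and 179, of which 199, 209, 162 and 139 were in the main ones.

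Whether replicate numbers pair the samples is not stated, and the pairs are too few to exclude it. Deviations of same-numbered arrays correlated between -0.1 and 0.15 over 4 culture pairs (1 above 0.1, 2 best matched to their own number). Over 10 tumour pairs they correlated between -0.538 and 0.435 (4 above 0.1, 0 best matched). With the replicate number as a block, which in effect drops control tumour 11, there were 5638 differences, 6753 cell calls, 2342 tumour calls and 219, 215, 167 and 135 genes in the classes, and 5 p53 targets fell in tumours. Of the named genes' results, 1 reversed: the tumour change of Slc7a11 was 0.21, and -0.027 on the deposited values. On arrays of this number, tumour changes of 0.20 (Brd3 and H3c1) and 0.33 (Art3) were not called.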
